A study of Mus musculus with 16 samples.

Results

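The Bcl2 family decides whether the outer membrane of the mitochondrion stays intact, and with it whether a T cell survives. Described here are the 10 family genes Bcl2, Bcl2l1, Mcl1, Bcl2l11, Bbc3, Pmaip1, Bid, Bad, Bax and Bak1, picked by their symbols out of the 30920 genes measured on 16 mouse gene arrays. The rule used symbols and no measured value, and each of the 10 genes had a single row, so none had to be picked among several.

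Spleens of C54BL/6 WT mice (the strain as the labels spell it), male and aged 8 weeks, gave cells labelled as CD4 T cells and cultured for 3 days, and each of 4 groups had 4 arrays. Th0 cells stayed out of Th17 conditions, and Th17 cells were kept under them. Eze cells had 20 µM Ezetimibe with the Th17 condition, and Rsv cells 20 µM Rosuvastatin with it. Ezetimibe blocks the uptake of cholesterol from the gut through Npc1l1, and rosuvastatin is a statin, an inhibitor of the enzyme that limits cholesterol synthesis. The study's Methods stimulate with antibodies to CD3, CD28, interferon-γ and IL-4 and with TGF-β and IL-6. The study calls the Th0 cells naïve T cells, and its Methods do not say whether these had the antibodies to CD3 and CD28. A difference in stimulation, if there was one, cannot be told apart from the Th17 conditions in Th17 against Th0. What the Th0 cells and the untreated Th17 cells had in place of a drug was not given in the sources used here. The labels name CD4 T cells, while the study's Results describe splenocytes and a shorter treatment than its Methods, which name spleen cells of BALB/c mice for the in vitro flow cytometry. In mixed cultures of this kind, fewer cells of a type and less RNA per cell cannot be told apart. The comparisons ask how the survival and death genes differ between Th17 and Th0 cells, and how they differ once ezetimibe or rosuvastatin is added.

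The markers of CD4 T cells, which include Cd3e, Cd4 and Lck, averaged 9.37 to 9.78 on the log2 scale over the 16 arrays, and all 8 of them lay above the background controls in every group. Markers of B cells were present too and separated the groups. Their mean was 6.63 to 6.71 in Th0, 5.70 to 5.82 in Eze, 5.26 to 5.43 in Rsv and 4.96 to 5.05 in Th17, and of the 10 genes 5 lay above background in Th0 and 1, Cd74, in each other group. The 8 cytotoxic and natural killer markers averaged 6.03 to 6.29 in Rsv, 5.74 to 5.83 in Th17, 5.15 to 5.29 in Th0 and 4.99 to 5.18 in Eze. The 8 myeloid markers averaged 4.85 to 5.07, 4.33 to 4.51, 3.91 to 4.18 and 4.01 to 4.11 in that order. Of the cytotoxic and natural killer markers 5 lay above background in Rsv, 3 in Th17, 1 in Th0 and 2 in Eze. Of the myeloid markers only 1, Ly6c2, lay above background in each group, and none of the 5 erythroid markers did. The contrast of exon with intron control probes, a measure of RNA and labelling quality on which an area of 1 is best, was 0.890 to 0.894 on the Eze arrays and 0.870 to 0.881 on the arrays of the other groups. Within a group 3 arrays carry a number in their title (Th0_1, Th0_2 and Th0_3, for example) and 1 does not, and the unnumbered arrays share a leading number in their array names that the numbered arrays do not have.

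**Figure D1:**
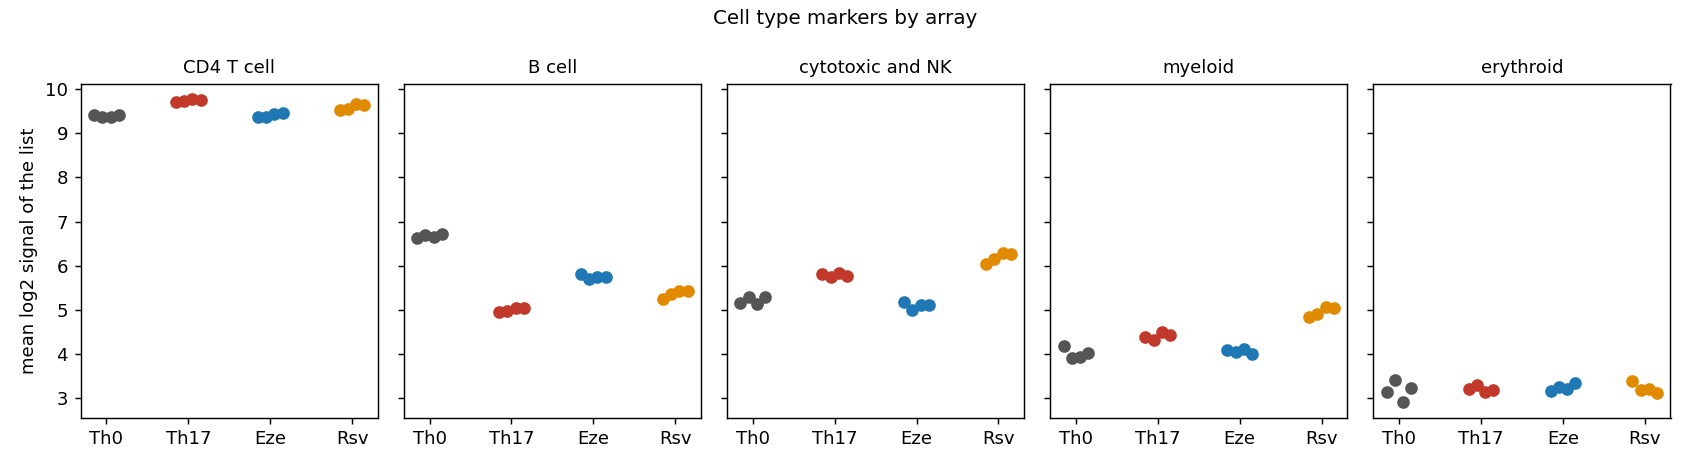
Mean log2 signal of 5 lists of cell type markers on each of the 16 arrays, with 4 arrays per group. The B cell list runs from 6.63 to 6.71 in Th0 down to 4.96 to 5.05 in Th17, while the CD4 T cell list stays between 9.37 and 9.78.

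The family has 3 kinds of members. Bcl2, Bcl2l1 (the gene of Bcl-xL) and Mcl1 encode survival proteins that hold the death proteins in check. Bcl2l11 (Bim), Bbc3 (Puma), Pmaip1 (Noxa), Bid and Bad encode proteins that carry only the BH3 stretch of the family and that either occupy the survival proteins or set off the effectors. Bax and Bak1 encode the effectors, which open the outer membrane and release cytochrome c, after which Apaf1 and the caspases take the cell apart. In T cells Bim is known for removing activated cells at the end of a response, Mcl1 is needed at nearly every stage of T cell life, and Bcl2 is kept up by interleukin-7.

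For 9 of the 10 genes RefSeq promoter windows were at hand, 15 windows of the 250 bases before a start site, and their GC content was 47.6% to 81.6% against a median of 52.4% over all promoters. The windows below belong to Bcl2l11, Bbc3 and Mcl1, shown because each was called lower than in Th17 in Eze and in Rsv. Both comparisons share the Th17 arrays, and the Rsv call of Bbc3 was lost in several settings given below. Of all genes, 10.5% were called lower in Eze and 12.4% in Rsv, and the share lower in both was not counted. The windows shown are all of build GRCm38.p6 and of the plus strand. They lie at chr2:128125788-128126037 for Bcl2l11, at chr7:16310011-16310260 for Bbc3 and at chr3:95658471-95658720 for Mcl1. Capitals mark the letters GTAAACA or their reverse complement, a binding motif of the FOXO factors.
Bcl2l11: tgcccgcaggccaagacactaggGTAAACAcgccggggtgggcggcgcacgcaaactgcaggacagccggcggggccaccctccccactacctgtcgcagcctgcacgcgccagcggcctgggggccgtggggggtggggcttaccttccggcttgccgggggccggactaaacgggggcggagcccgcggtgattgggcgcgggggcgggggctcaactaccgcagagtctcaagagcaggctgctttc
Bbc3: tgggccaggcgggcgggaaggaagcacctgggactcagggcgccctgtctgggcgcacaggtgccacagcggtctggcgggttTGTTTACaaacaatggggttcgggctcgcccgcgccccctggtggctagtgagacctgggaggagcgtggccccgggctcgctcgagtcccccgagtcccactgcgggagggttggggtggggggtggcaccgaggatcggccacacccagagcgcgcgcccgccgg
Mcl1: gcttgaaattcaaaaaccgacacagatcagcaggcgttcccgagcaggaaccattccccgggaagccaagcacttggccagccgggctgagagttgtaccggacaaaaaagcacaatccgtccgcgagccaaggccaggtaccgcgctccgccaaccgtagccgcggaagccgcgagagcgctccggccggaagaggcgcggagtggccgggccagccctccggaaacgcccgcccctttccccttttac
Bcl2l11 has 2 windows and Bbc3 has 3, and the window shown is the 1 with the motif in each. The window of Mcl1 holds none of the 7 motifs searched on both strands, which were the FOXO letters, the E-box CACGTG, the cyclic AMP element TGACGTCA, the AP-1 letters TGANTCA, the STAT letters TTCNNNGAA, the ATF4 and C/EBP letters TGATGCAA and a full p53 site. The FOXO letters stand in 2 of the 15 windows of the family genes, both shown above, and in 3.17% of 32851 promoter windows. The E-box, in 6.02% of all windows, occurred in the window of Bax and in the third window of Bbc3, and no other window of these genes held any of the motifs. A match describes the letters and shows no binding.

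Bcl2l11 differed most between the groups. This gene, at chr2:128126038-128162547 on the plus strand, was highest in Th17 and lowest in Eze, and no array of any group overlapped with another group. The 4 arrays read 6.35, 6.29, 6.25 and 6.16 in Th0, and 7.36, 7.48, 7.24 and 7.25 in Th17. With ezetimibe they read 5.47, 5.33, 5.42 and 5.46, and with rosuvastatin 6.76, 6.96, 6.98 and 6.93. The group means were therefore 6.26 ± 0.079 (SD, n = 4) in Th0, 7.33 ± 0.113 in Th17, 5.42 ± 0.065 in Eze and 6.91 ± 0.104 in Rsv. Bcl2l11 rose by 1.07 (SE 0.081, 2.10-fold) in Th17 over Th0, with an adjusted p of 2.14e-08. Against Th17 it fell by 1.91 with ezetimibe, 3.76-fold (SE 0.081, adjusted p = 1.45e-11). With rosuvastatin it fell by 0.42, 1.34-fold (adjusted p = 0.000661). The Eze cells also lay 0.84 below Th0 (log2 difference -0.84, adjusted p = 4.66e-07), while the Rsv cells stayed 0.65 above Th0 (adjusted p = 6.64e-06). All adjusted p-values are from limma over 30920 genes, with a threshold of 0.05 for calling a difference. The Eze and Th0 means of Bcl2l11 lie below the 95th percentile of the background control rows, which was 6.56 in Eze and 7.04 in Th0. The CD4 T cell markers averaged 9.71 to 9.78 in Th17, 9.52 to 9.66 in Rsv, 9.37 to 9.41 in Th0 and 9.37 to 9.45 in Eze, and their part in the differences of Bcl2l11 was not tested.

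**Figure D2:**
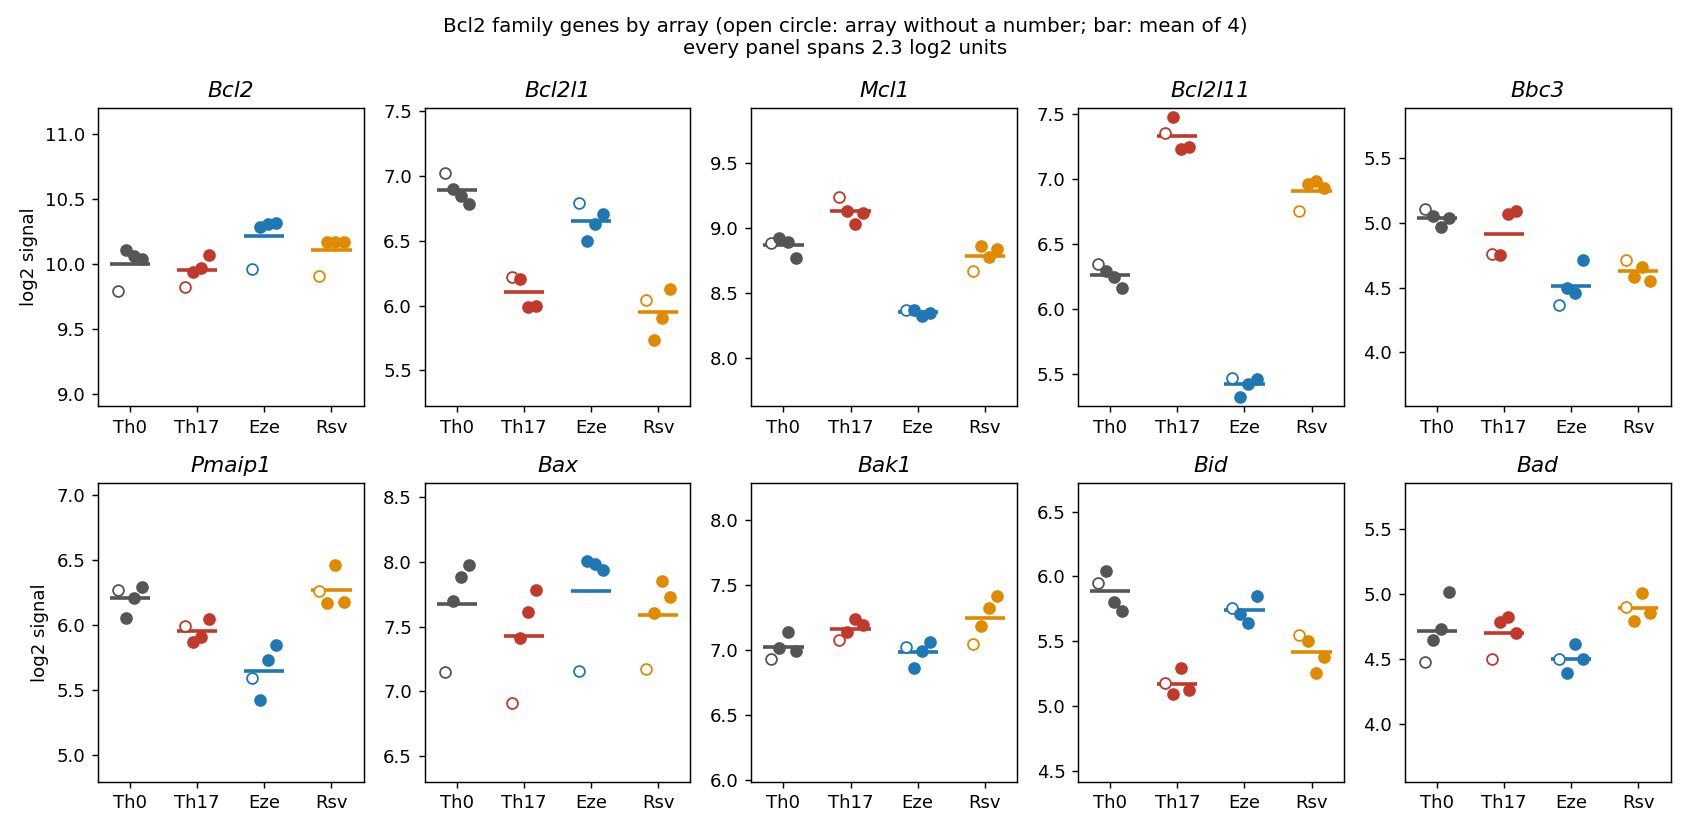
Log2 signal of the 10 family genes on each array, by group, with a bar at the mean of 4 arrays and an open circle for the unnumbered array of each group. Bcl2l11 separates all 4 groups, and in Bax the open circles, 6.91 to 7.17, lie under all filled ones, 7.41 to 8.00.

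Mcl1 and Bcl2l1, both genes of survival proteins, had different orders of the groups. Mcl1, at chr3:95658721-95663179 on the plus strand, was highest in Th17 and lowest in Eze. Its arrays read 8.88, 8.92, 8.90 and 8.77 in Th0 and 9.24, 9.13, 9.03 and 9.12 in Th17. They read 8.37, 8.37, 8.32 and 8.35 in Eze and 8.67, 8.86, 8.78 and 8.84 in Rsv. The Eze arrays lay under those of every other group, while Rsv and Th0 overlapped. Against Th17, Mcl1 fell by 0.78 with ezetimibe, 1.71-fold (SE 0.074, adjusted p = 2.84e-07), and by 0.34 with rosuvastatin, 1.27-fold (adjusted p = 0.00172). It was 0.26 higher in Th17 than in Th0 (SE 0.074, adjusted p = 0.0187). That small difference was no longer called with the numbered arrays alone (0.23, adjusted p = 0.0726) or with the arrays of those 2 groups alone (adjusted p = 0.0532). It was not called without array Th0_3 (adjusted p = 0.0688) or without the unnumbered Th17 array (adjusted p = 0.0656).

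Bcl2l1, at chr2:152767316-152831728 on the minus strand, was highest in Th0. Its arrays read 7.02, 6.90, 6.85 and 6.78 in Th0 and 6.22, 6.21, 5.99 and 6.00 in Th17. They read 6.79, 6.49, 6.63 and 6.70 in Eze and 6.04, 5.73, 5.90 and 6.13 in Rsv, so that Th0 and Eze lay apart from Th17 and Rsv with no overlap. Bcl2l1 fell by 0.78 in Th17 against Th0, 1.72-fold (SE 0.099, adjusted p = 1.19e-05), and by 0.94 in Rsv against Th0 (adjusted p = 8.15e-07). It rose by 0.55 with ezetimibe over Th17, 1.46-fold (adjusted p = 0.000377). Between Rsv and Th17 the difference was -0.15 with a 95% interval of -0.36 to 0.06 and was not called (adjusted p = 0.294). Of the 16 arrays only 3, all of Eze, lay above the 95th percentile of the background controls for Bcl2l1, so the sizes of its differences compare signals near or below that level. That percentile was 6.56 in Eze and 7.04 in Th0, while the mean of Bcl2l1 was 6.65 in Eze and 6.89 in Th0. The B cell markers ran in the order Th0, Eze, Rsv, Th17, and Bcl2l1 in the order Th0, Eze, Th17, Rsv. The part of these cells in the result was not tested.

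Bcl2 itself was the steadiest of the survival genes. At chr1:106538178-106714290 on the minus strand, it read 9.80, 10.11, 10.06 and 10.04 in Th0, 9.83, 9.94, 9.97 and 10.07 in Th17, 9.97, 10.28, 10.31 and 10.32 in Eze, and 9.91, 10.17, 10.17 and 10.17 in Rsv. The first value of each group is the unnumbered array, and it was the lowest in all 4 groups. Over all arrays no difference of Bcl2 was called, with 0.27 between Eze and Th17 (95% interval 0.06 to 0.48, adjusted p = 0.0693) and -0.05 between Th17 and Th0 (interval -0.26 to 0.16). The unnumbered arrays lay 0.26 under the numbered ones (log2 difference -0.26, SE 0.053, adjusted p = 0.0458). With a term for the unnumbered arrays the difference of 0.27 was called (adjusted p = 0.00562), as it was among the numbered arrays alone (0.31, adjusted p = 0.00887). Against Th0, Eze differed by 0.22, called with that term (adjusted p = 0.0222) and not without it (adjusted p = 0.138).

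The effector Bax showed the same split on a larger scale. At chr7:45461695-45466898 on the minus strand, it read 7.15 on the unnumbered Th0 array and 7.70, 7.88 and 7.98 on the others. In Th17 these values were 6.91 against 7.41, 7.61 and 7.78, in Eze 7.16 against 8.00, 7.98 and 7.94, and in Rsv 7.17 against 7.61, 7.85 and 7.73. The unnumbered arrays lay 0.69 under the numbered ones (log2 difference -0.69, SE 0.076, adjusted p = 0.000331). Of all 30920 genes 120, or 0.388%, differed so, and among the 10 family genes only Bax and Bcl2 were called. Bax differed by 0.34 between Eze and Th17, with an interval of -0.13 to 0.81 (adjusted p = 0.346). With a term for the unnumbered arrays the same 0.34 had an SE of 0.093 and was called (adjusted p = 0.0124), and among the numbered arrays it was 0.37 (adjusted p = 0.0306). Between the single unnumbered arrays of Eze and Th17 the difference was 0.25. None of the 5 other comparisons of Bax was called over all arrays or with that term.

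The other effector gene, Bak1, at chr17:27019810-27029009 on the minus strand, moved little. Its group means were 7.02 ± 0.087 in Th0, 7.17 ± 0.068 in Th17, 6.99 ± 0.088 in Eze and 7.24 ± 0.160 in Rsv. The order of the means was that of the cytotoxic and natural killer markers, whose part was not tested. The 1 difference called was that of -0.26 between Eze and Rsv (SE 0.087, adjusted p = 0.0345). It was lost with each array centred on its median (-0.10, adjusted p = 0.503) and with the arrays of those groups alone (adjusted p = 0.0793). Leaving out the unnumbered Eze array, Eze_1, Eze_2, Rsv_2 or Rsv_3 gave adjusted p-values of 0.0514 to 0.103. The 0.22 between Rsv and Th0 was not called over all arrays (adjusted p = 0.0713). It was called with a filter on dim genes (adjusted p = 0.0140), array weights (0.0360) or a trended and robust variance prior (0.0380). A trended prior alone (0.0400) or leaving out the unnumbered Rsv array (0.0175) gave that call too. With the filter the -0.18 between Eze and Th17 was also called (adjusted p = 0.0439).

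Bid was lower in Th17 than in Th0 and higher with ezetimibe. Its product is cut by caspase-8 below the death receptors and carries that signal to the mitochondria. The gene lies at chr6:120892854-120916853 on the minus strand. Its arrays read 5.95, 6.04, 5.81 and 5.74 in Th0 and 5.18, 5.10, 5.29 and 5.12 in Th17, with no overlap. They read 5.76, 5.71, 5.64 and 5.85 in Eze and 5.55, 5.50, 5.25 and 5.38 in Rsv. Bid fell by 0.71 in Th17, 1.64-fold (SE 0.091, adjusted p = 1.28e-05), and rose by 0.57 with ezetimibe over Th17, 1.48-fold (adjusted p = 0.000112). The 0.25 between Rsv and Th17 was at the threshold (adjusted p = 0.0532), and was called without Th0_1, Th17_2 or Rsv_2 (adjusted p = 0.0262 to 0.0485). Eze exceeded Rsv by 0.32 (adjusted p = 0.0139). The order of the 4 means, Th0, Eze, Rsv, Th17, was that of the B cell markers, and the part of B cells in it was not tested. No array of Bid lay above the background controls.

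Bbc3 and Pmaip1 are targets of p53 that also answer to other stress signals. Bbc3 was lower with either drug, while Pmaip1 differed between the drugs. Bbc3, at chr7:16309583-16318334 on the plus strand, read 5.11, 5.05, 4.97 and 5.04 in Th0 and 4.76, 4.75, 5.07 and 5.09 in Th17. It read 4.37, 4.50, 4.46 and 4.72 in Eze and 4.71, 4.58, 4.66 and 4.55 in Rsv, and every drug-treated array lay under every Th17 and Th0 array. It fell by 0.41 with ezetimibe (SE 0.096, adjusted p = 0.00413) and by 0.29 with rosuvastatin (adjusted p = 0.0325) against Th17. The latter was not called with the arrays of those groups alone (adjusted p = 0.0767), nor without Rsv_1, Rsv_2, Rsv_3, Th17_2 or Th17_3 (adjusted p = 0.0505 to 0.112). Eze and Rsv differed in Bbc3 by -0.11, with an interval of -0.32 to 0.09.

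Pmaip1, on chromosome 18, encodes a protein that binds Mcl1 and marks it for breakdown. It read 6.27, 6.05, 6.21 and 6.29 in Th0 and 5.99, 5.87, 5.91 and 6.05 in Th17. It read 5.59, 5.43, 5.74 and 5.85 in Eze and 6.27, 6.17, 6.46 and 6.18 in Rsv, so that Eze lay lowest and Th17 between it and the other groups. Against Th17 it fell by 0.31 with ezetimibe (SE 0.099, adjusted p = 0.0326) and rose by 0.31 with rosuvastatin (adjusted p = 0.0251), and the drugs themselves differed by -0.62, Eze minus Rsv (adjusted p = 0.000132). The first pair of calls was small. With each array centred on its median they became -0.23 (adjusted p = 0.141) and 0.23 (adjusted p = 0.131), and among the numbered arrays alone they were not called either (adjusted p = 0.159 and 0.0839). The ezetimibe call was lost without the unnumbered Th17 array, Th17_3, the unnumbered Eze array or Eze_1 (adjusted p = 0.0716 to 0.127). The rosuvastatin call was lost without Th17_1, Th17_2 or Rsv_2 (adjusted p = 0.0566 to 0.0896). Between the drugs Pmaip1 was called under every one of these settings.

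Bad, at chr19:6941855-6951898 on the plus strand, encodes a BH3 protein that growth factor kinases switch off. Its group means were 4.72 ± 0.226 in Th0, 4.70 ± 0.145 in Th17, 4.50 ± 0.092 in Eze and 4.89 ± 0.089 in Rsv. Only the difference of -0.39 between Eze and Rsv was called (SE 0.106, adjusted p = 0.0112), and it was -0.23 with each array centred on its median (adjusted p = 0.129). Bad, Bbc3, Pmaip1 and Bid stayed below the 95th percentile of the background controls in every group, while the 6 other family genes exceeded it in at least 1 group, as did 6528 of all 30920 genes. That percentile, 6.51 to 7.04 by group, is set by a few bright rows among 23, whose median was 2.33 to 2.62. For a group below it the differences are of the signals as deposited, and how much of such a signal was background was not tested.

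Counted by comparison, 2 of the 10 genes (Bcl2l11 and Mcl1) were higher and 2 (Bcl2l1 and Bid) lower in Th17 than in Th0, where 8.5% and 7.29% of all genes were called in those directions. With ezetimibe, Bcl2l1 and Bid were higher than in Th17, 2 of 10 beside 11.2% of all genes, and Bcl2l11, Mcl1, Bbc3 and Pmaip1 were lower, 4 of 10 beside 10.5%. The comparisons with Th17 share the Th17 arrays. With rosuvastatin, Pmaip1 was higher than in Th17, 1 of 10 beside 13.6%, and Bcl2l11, Mcl1 and Bbc3 were lower, 3 of 10 beside 12.4%. Between the drugs, Bcl2l1 and Bid were higher in Eze than in Rsv, 2 of 10 beside 13.3%, and Bcl2l11, Mcl1, Pmaip1, Bak1 and Bad lower, 5 of 10 beside 15.2%. Against Th0, none was higher in Eze (11.7% of all genes) and Bcl2l11, Mcl1, Bbc3 and Pmaip1 were lower, 4 of 10 beside 10.9%. In Rsv against Th0 only Bcl2l11 was higher, 1 of 10 beside 13.4%, and Bcl2l1, Bid and Bbc3 were lower, 3 of 10 beside 12.8%. The median over the 10 genes was -0.09 in Th17 against Th0, -0.19 with ezetimibe and 0.12 with rosuvastatin against Th17, beside -0.03, -0.04 and 0.06 over all genes.

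**Figure D3:**
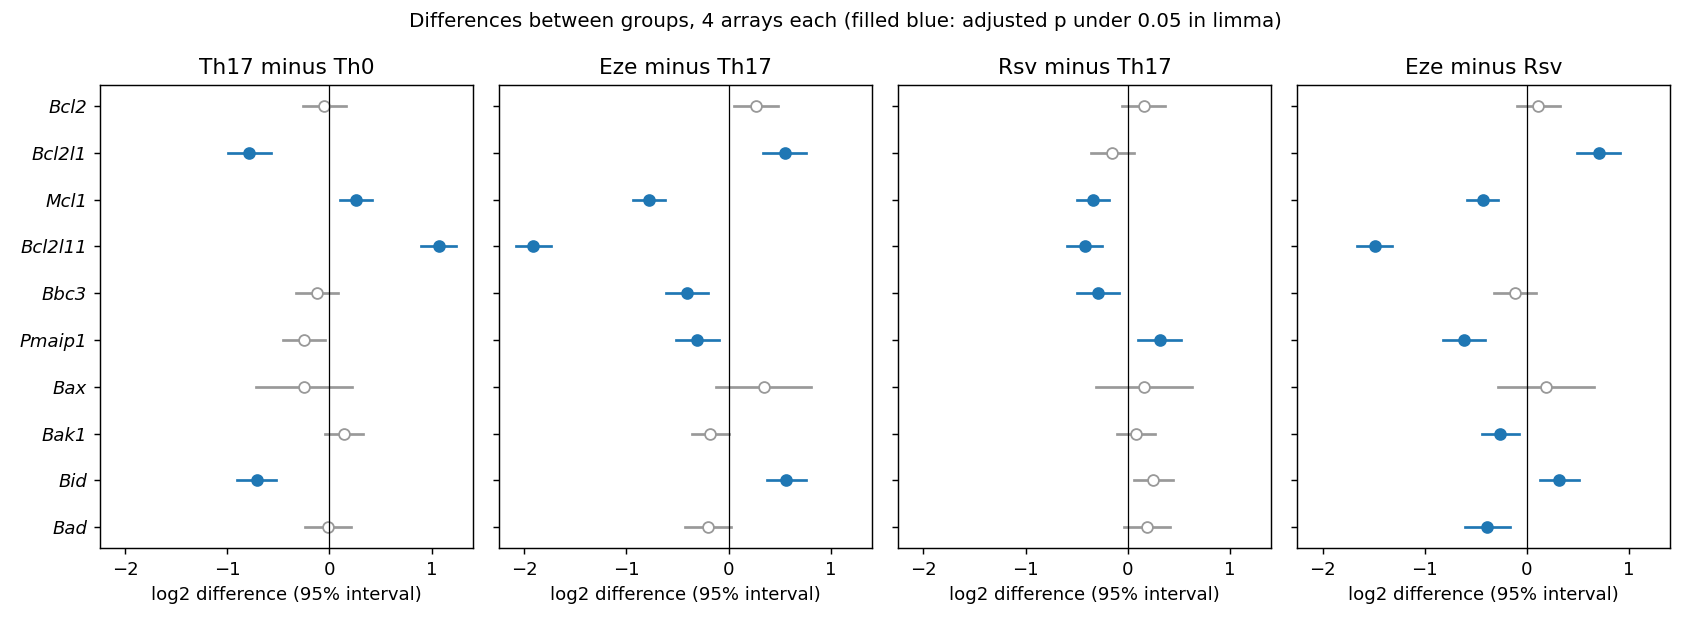
Log2 difference of the 10 family genes with its 95% interval in 4 comparisons, each of 4 against 4 arrays, with filled blue points for an adjusted p under 0.05. Bcl2l11 spans from 1.07 in Th17 against Th0 to -1.91 in Eze against Th17, while the wide intervals of Bax include 0 in all 4 panels.

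Among 15 other genes of the family, 1 was higher and 3 were lower with ezetimibe than with Th17 conditions alone, and 3 were higher and 3 lower with rosuvastatin. Of all genes, 11.2% and 10.5% were called higher and lower with ezetimibe, and 13.6% and 12.4% with rosuvastatin. Bnip3 and Bnip3l, whose products sit in the outer membrane and call mitochondria to autophagy, had the largest values. Bnip3 fell by 0.96 with ezetimibe (SE 0.126, adjusted p = 1.32e-05) and fell by 2.21 with rosuvastatin (adjusted p = 3.6e-10), and it had risen by 0.62 in Th17 over Th0. In Rsv no array of Bnip3 lay above the background controls (mean 5.79). Bnip3l fell by 1.04 and by 1.66 with the respective drugs. Eze exceeded Rsv by 1.25 in Bnip3 and by 0.62 in Bnip3l (adjusted p = 7.22e-07 and 5.69e-05), the reverse of Bcl2l11. The survival genes Bcl2a1a, Bcl2a1b and Bcl2a1d fell by 0.61, 1.09 and 1.18 in Th17 against Th0 and rose by 0.44, 0.50 and 0.39 with rosuvastatin. These copies are nearly identical and the annotation marks their probes as matching more than 1 of them, so they are uncertain as separate genes, and no array of the 3 lay above the background controls. In Th17 against Th0, 2 of the 15 genes were higher and 3 lower, beside 8.5% and 7.29% of all genes.

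Downstream of the mitochondria, 8 of 18 genes were called higher in Eze than in Th17 and 3 lower, and with rosuvastatin 7 were higher and 4 lower, beside 11.2%, 10.5%, 13.6% and 12.4% of all genes. Diablo and Htra2, whose products leave the mitochondria and block the inhibitors of the caspases, rose by 1.002 (SE 0.117, adjusted p = 3.23e-06) and by 0.84 (adjusted p = 0.000671) with ezetimibe. Diablo lay below the background controls on every array (mean 6.29 in Eze and 5.29 in Th17). It also rose by 0.61 with rosuvastatin, while Htra2 differed there by 0.04 (adjusted p = 0.874). Apaf1, the scaffold on which caspase-9 is activated, fell by 0.85 with ezetimibe (adjusted p = 1.54e-07) and fell by 0.42 with rosuvastatin, and was 0.54 higher in Th17 than in Th0. Birc2, a ubiquitin ligase of the inhibitor family, fell by 0.80 and 0.84 with ezetimibe and rosuvastatin. The executioner caspase gene Casp6 fell by 1.62 with rosuvastatin (SE 0.096, adjusted p = 5.85e-10) and differed by 0.04 with ezetimibe (adjusted p = 0.835), a gap between the drugs of 1.66 (adjusted p = 6.29e-10). In Th17 against Th0, 4 of the 18 genes were higher, with Birc5 at 0.78 on arrays below the background controls, and 2 were lower, with Casp6 at -0.39, beside 8.5% and 7.29% of all genes.

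Of the 10 genes of the death receptor route that ends in Bid, 3 were higher and 4 lower with ezetimibe, 4 higher and 2 lower with rosuvastatin, and 1 higher and 3 lower in Th17 against Th0. The shares of all genes were 11.2% and 10.5%, 13.6% and 12.4%, and 8.5% and 7.29%. The TRAIL receptor gene Tnfrsf10b rose by 0.76 with ezetimibe (SE 0.129, adjusted p = 0.000201), while Fas and the TRAIL gene Tnfsf10 fell by 0.58 and 0.45. With rosuvastatin, Tnfsf10 rose by 0.44, Casp8, the protease that cuts Bid, rose by 0.52, and the TNF receptor gene Tnfrsf1a fell by 0.91 (adjusted p = 4.26e-07). The Fas ligand gene Fasl fell by 0.90 in Th17 against Th0 (SE 0.110, adjusted p = 7.63e-06). Tnfsf10 and Fasl lay below the background controls on every array.

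Regulators of the family changed in both directions, 7 of 20 higher and 6 lower with ezetimibe, 4 and 5 with rosuvastatin, and 6 and 5 in Th17 against Th0, beside the same shares of all genes. Il7r, the receptor chain through which interleukin-7 keeps up Bcl2 in T cells, fell by 1.63 with ezetimibe (SE 0.097, adjusted p = 9.06e-10) and differed by -0.21 with rosuvastatin (adjusted p = 0.131). The stress factor genes Atf4 and Ddit3 fell by 0.84 and 1.13 in Th17 against Th0, and Atf4 rose by 0.82 with ezetimibe (adjusted p = 2.72e-06). Ddit3, whose product CHOP is known to raise Bim in stressed cells, rose by 0.60 with ezetimibe (adjusted p = 0.000992). With rosuvastatin Ddit3 fell by 0.64, to a level below the background controls, and it was 1.24 higher in Eze than in Rsv. The survival kinase gene Pim2 fell by 0.81 with ezetimibe. Stat5b and Stat5a, which carry cytokine signals to Bcl2l1 and Bcl2, fell by 1.13 and 0.90 with rosuvastatin, and Stat5b fell by 0.61 with ezetimibe. Foxo1 rose by 0.67 in Th17 over Th0 (adjusted p = 4.39e-06), and Foxo3, below the background controls in every group, fell by 0.72 with rosuvastatin. The medians of the 4 lists lay between -0.09 and 0.08 in the comparisons of a drug with Th17.

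**Figure D4:**
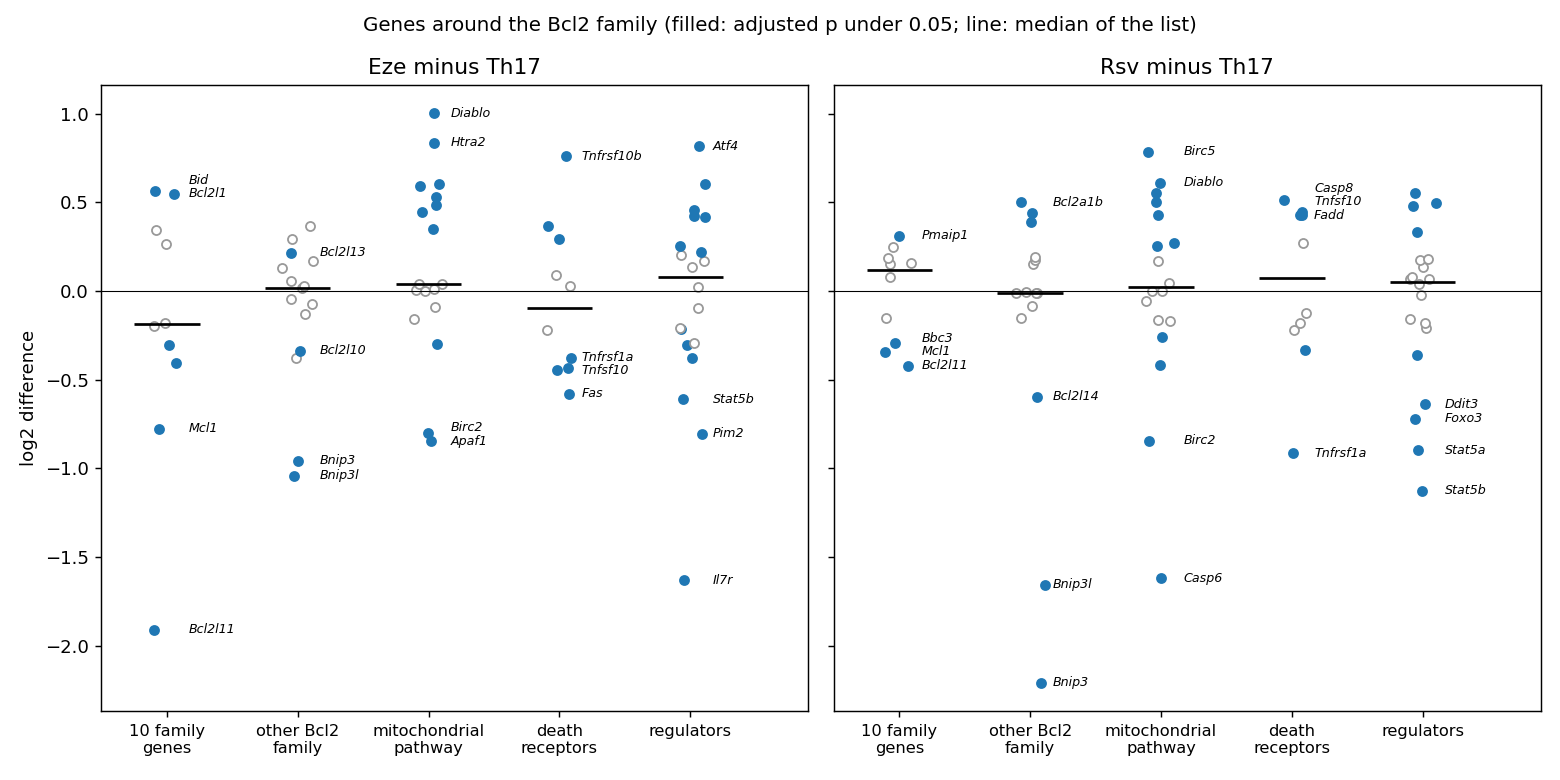
Log2 differences from Th17 of the 10 family genes and of 4 lists around them, with ezetimibe at the left and rosuvastatin at the right, filled where the adjusted p was under 0.05 and with a line at each list's median. Up to 4 called genes of each list are named, among them Il7r at -1.63 with ezetimibe and Bnip3 at -2.21 with rosuvastatin.

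The genes whose signal followed a family gene most closely over the 16 arrays were sought for the 3 genes with the widest range of group means, among the 6528 genes above background. For Bcl2l11 they were Gpr18 (Pearson r 0.9895), Tmem71 (0.984) and Zmynd11 (0.9823). For Mcl1 they were Arid4a (0.98), Pde3b (0.9753) and Gimap6 (0.975), and for Bcl2l1 they were Clcn5 (0.96), Stk40 (0.9599) and Slc3a2 (0.9594). Gpr18, for example, had group means of 9.09 in Th0, 9.70 in Th17, 8.65 in Eze and 9.41 in Rsv, the same order as Bcl2l11. The arrays fall into 4 groups, so these coefficients rest largely on the differences between group means.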

How the data were processed

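RNA was hybridised to 16 Affymetrix mouse gene arrays, 4 per group. Per the methods, the authors preprocessed the signals (the algorithm they name is read here as robust multi-array averaging) and applied quantile normalization. Their deposited log2 values were used without further scaling, and the base of the logarithm, which no source states, was taken from the range of the values. The methods call the assay sequencing, while the files hold array features. The 2 deposited value tables held the same numbers, with a largest difference of 0. Rows with 1 gene symbol gave 30920 genes, each by its brightest row.

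With limma 3.58.1 (R 4.3.3), lmFit and eBayes were run on all 16 arrays with a mean for every group, two-sided, and differences were called at a Benjamini-Hochberg adjusted p under 0.05 over the 30920 genes. The fit was tested on simulated data. Alternatives were centring of each array on its median, the mean of all rows of a gene, a filter on dim genes, a replicate block, a term for unnumbered arrays, numbered arrays alone, the groups compared alone, array weights, a trended and robust variance prior, an exact Mann-Whitney test and leaving out each array. A trended prior alone and the differences between single unnumbered arrays were added after seeing the data. The few arrays limit the precision: the SE of a log2 difference had a median of 0.11 over genes.

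The family genes and all lists were chosen with earlier results of these data known. All family genes are named, and of each other list up to 4 called genes per comparison with the largest differences, except that 1 such gene is not reported here. No source used here says which arrays came from separate cultures or mice. The p-values therefore rest on the spread among these arrays alone, which may be technical. Coordinates come from the annotation deposited with the values, and 6 of the 10 family genes have their start or end in common with GRCm38. Promoter windows are from RefSeq, GRCm38.p6.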

Additional observations from a re-analysis of the deposited data

Results flagged for a closer look

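In 40 sets of 4 arrays, 10 genes in 4 groups, an array was looked for that lay far from the others of its group, by a gap to its neighbour that is a larger share of the group's range than Dixon's critical value allows. Chance gives about 1 in 20 such sets. There were 3, each of them an unnumbered array. For Bcl2 these were the Eze array at 9.97 (gap 0.907 of the range) and the Rsv array at 9.91 (0.982), and for Bax the Eze array at 7.16 (0.925). In the other groups the unnumbered array was also the lowest for Bcl2 and Bax, but with a smaller gap.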

How the results depend on the processing

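Of the 60 differences of family genes, 29 were called, which are counted by comparison above beside the shares of all genes. Of these, 23 kept their call under every alternative that gave a value, while none of the 29 changed sign. The exact Mann-Whitney test was read here at an unadjusted p under 0.05, since with 4 against 4 arrays it cannot pass the adjustment. After quantile normalization the medians over genes still differed between arrays. When every array was centred on that median, the share of higher genes among those called went from 51.7% to 64.1% in Eze against Th17, from 52.2% to 35.8% in Rsv against Th17, from 46.8% to 77.2% in Eze against Rsv, from 51.7% to 72.2% in Eze against Th0, from 53.8% to 60.9% in Th17 against Th0 and from 51.1% to 41.2% in Rsv against Th0, and the median of all genes moved by 0.1558 in Eze against Rsv and by 0.1041 in Eze against Th0. The 6528 genes above the background controls leave out Bbc3, Pmaip1, Bid and Bad. Limited to them, 4415 genes were called in Eze against Th17 (6706 without the limit) and 4464 in Rsv against Th17 (8038). In Eze against Rsv 4002 were called (8802), in Eze against Th0 4278 (6963) and in Rsv against Th0 4489 (8103). Of the 6 family genes kept, 2 were called in Rsv against Th17, beside 4464 of the 6528 genes. In Eze against Rsv 4 of the 6 were called, beside 4002 of the 6528. Bcl2l1 passed the limit through its Eze mean alone, 6.65 against a limit of 6.56 in Eze. Its Th0 mean was higher, 6.89, but the limit in Th0 was 7.04. Signs turned only in differences that were not called. With centring these were Bad in Th17 against Th0 (0.0163), Bak1 in Rsv against Th17 (-0.00469), Bak1 in Eze against Th0 (0.0684) and Bbc3 in Eze against Rsv (0.0410). Leaving out 1 array, the values ranged from -0.0964 to 0.0838 for Bad in Th17 against Th0, from -0.0149 to 0.298 for Bax in Rsv against Th17, from -0.0802 to 0.300 for Bax in Eze against Th0, from -0.263 to 0.0522 for Bax in Rsv against Th0, from -0.0661 to 0.00595 for Bak1 in Eze against Th0 and from -0.00312 to 0.0953 for Pmaip1 in Rsv against Th0. The cause of these turns was not tested. Deviations from the group means correlated at -0.1226 to 0.1659 between arrays with the same number, the unnumbered arrays being counted as number 0. Between arrays of different groups with different numbers they correlated at -0.2005 to 0.2384. For 6 of 16 arrays, the closest array of another group had the same number. Because these ranges overlap, whether the numbers in the titles pair the arrays cannot be decided from them. With a replicate block, 8 family genes in place of 6 were called in Eze against Th17. Of all genes, 6654 in place of 6706 were called there. The added family genes were Bcl2 (0.27, adjusted p = 0.0118) and Bax (0.34, adjusted p = 0.00919). In Eze against Th0 Bcl2 was added (0.22, adjusted p = 0.0375), while 6882 of all genes were called in place of 6963. The 2 deposited tables are the same, so the other table gave no value of its own, and each family gene has 1 row. Signal near the background controls limits the differences of Bbc3, Pmaip1, Bid and Bad in every group, of Bcl2l1 in Th0, Th17 and Rsv, of Bcl2l11 in Eze and Th0, and of Bak1 in Th0. Because the limit differs by group, Bak1 fell under it in Th0 at a mean of 7.02 and passed it in Eze at 6.99.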
